A study of Homo sapiens with 9 samples.

Results

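Kinases of the SRC family and the kinases that switch them off were read by 17 of the 49386 probe sets on Affymetrix U219 expression arrays of HEK293T cells. A probe set was included when its only gene symbol was SRC, FYN, YES1, LYN or LCK, which are members of the family, or CSK or MATK, which inhibit it. This gave 2 probe sets for SRC, 1 for FYN, 1 for YES1, 3 for LYN, 5 for LCK, 4 for CSK and 1 for MATK, or 7 of the 18239 genes that had a probe set of their own. MATK and SRC were taken up because of values already known from these arrays, namely a low MATK in both cell lines that express BRD1 and a high SRC in one of them. Those values are therefore given as a description, without a test.

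SRC family kinases sit at the inner face of the plasma membrane, where they phosphorylate tyrosines of adaptors, cytoskeletal proteins and transcription factors downstream of integrins and growth factor receptors. Their activity is held down by phosphorylation of a tyrosine in their C-terminal tail, which folds the kinase into a closed form. CSK, which is present in nearly all cells, places this mark, and MATK, also called CHK, is its relative and is best known from blood cells and the brain. SRC, FYN and YES1 are made in most tissues, whereas LCK belongs to T cells and LYN is best known from B cells and myeloid cells.

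HEK293T is a human embryonic kidney line that carries the large T antigen of a simian virus. The study changed the level of BRD1, a scaffold of histone acetyltransferase complexes, and asked which genes differed afterwards. Groups were BRD1-S cells and BRD1-L cells, which carry a His6/V5 tagged isoform of BRD1 in stable or episomal form, with 1 array each, 3 arrays with BRD1 siRNA, 3 with control siRNA and 1 array of untreated cells. The siRNA arrays form 3 pairs, labelled Qiagen, Dharmacon 1 and Dharmacon 2 after the kit, and RNA was taken a day after transfection. According to the study, each kit had its own pool of BRD1 siRNAs and its own concentration. Kit, siRNA sequence and dose therefore cannot be told apart. The controls are called mock in the labels and scrambled siRNA in the study. Whether either line is a single clone is not given in the sources used here, and the labels name no line with an empty vector.

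All values are log2 intensities, so that a difference of 1 is a doubling of signal, and the median of all values was 5.47. Array means lay between 6.25 and 6.30. Of 13 probe sets for markers of HEK293 cells 11 lay above the median of all values on at least 1 array, compared with 1 of 17 for markers of blood cells and 0 of 19 for markers of fibroblasts. The blood cell markers ranged up to 5.63, the value of CD68 in BRD1-L cells, and the others stayed below the median of all values. BRD1 itself was read by 3 probe sets. Probe set 11748646_a_at stood at 11.11 in the BRD1-S and 11.27 in the BRD1-L line, against 6.33 in untreated cells, whereas probe set 11731093_s_at, at 7.97 and 7.99, was close to the 7.88 of untreated cells. With BRD1 siRNA, 11731093_s_at stood at 7.08 (Qiagen), 6.75 (Dharmacon 1) and 6.72 (Dharmacon 2), against 8.13, 8.04 and 7.95 with control siRNA. This was the BRD1 probe set with the largest decrease in each pair. Over the 3 probe sets, BRD1 siRNA differed from its control by -1.05 to -0.40 (Qiagen), -1.29 to -0.36 (Dharmacon 1) and -1.23 to -0.56 (Dharmacon 2).

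MATK was the member with the widest range, and it was lowest in BRD1-L cells and next lowest in BRD1-S cells. Its probe set, 11731227_a_at, read 7.32 in the BRD1-S and 5.85 in the BRD1-L line, against 8.09 in untreated cells. BRD1-S cells thus differed from untreated cells by -0.77 (1.70-fold lower), whereas BRD1-L cells differed by -2.23 (4.70-fold lower). Among all 49386 probe sets, 47 had a larger decrease in the BRD1-S and 13 in the BRD1-L line, which describes a probe set picked for being low. BRD1-L cells also lay below BRD1-S cells, with 5.85 against 7.32 (2.77-fold lower). With 1 array of each line there is no error for these differences, and in bulk RNA fewer cells with a transcript cannot be told apart from less transcript per cell.

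The siRNA arrays show how far MATK varied without any BRD1 construct. After BRD1 siRNA, MATK read 9.25 (Qiagen), 9.24 (Dharmacon 1) and 7.73 (Dharmacon 2), against 8.99, 9.17 and 7.86 with control siRNA. The arrays thus separated by pair and not by siRNA, since both arrays of the Qiagen and Dharmacon 1 pairs were at 8.99 or above and both of the Dharmacon 2 pair were close to untreated cells. Control siRNA differed from untreated cells by 0.90 (Qiagen), 1.08 (Dharmacon 1) and -0.23 (Dharmacon 2). The 4 arrays without a change of BRD1 spanned 1.31, more than the distance of BRD1-S cells from the untreated array. Both lines lay below all 4, and relative to the lowest of them the difference was -0.54 in the BRD1-S and -2.01 in the BRD1-L line. Relative to the mean of the 3 controls it was -1.35 in the BRD1-S and -2.82 in the BRD1-L line, so the size depended on the control array. Because MATK was picked for being low in both lines, nothing is read from its direction.

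NEFL and NEFM, markers of HEK293 cells, were low in BRD1-L cells as MATK was, but the markers did not follow MATK throughout. In BRD1-S cells, where MATK differed by -0.77, the NEFL probe sets differed by -0.05, -0.04 and 0.00. In BRD1-L cells 5 of the 13 marker probe sets were more than 1.5-fold lower than in untreated cells (compared with 2.42% of all probe sets). In the same cells 1 was higher (compared with 3.67%), and the median was -0.43. BRD1-S cells had 2 lower (compared with 0.326% of all probe sets), 1 higher (compared with 1.12%) and a median of -0.04. The 5 probe sets were those of NEFL and NEFM, subunits of neurofilaments, which differed by -3.88 to -3.17 in BRD1-L cells. The 2 lower in BRD1-S cells were those of NEFM, at -0.68 and -0.67, and BEX1, a small adaptor protein, was the 1 higher in either line. BEX1 was also higher in the Qiagen and Dharmacon 1 controls, by 0.83 and 0.84. VIM differed by 0.42 and 0.30 in BRD1-L cells and by -0.20 and -0.27 in the Qiagen control, opposite to MATK. LIN28B differed by -0.43 and -0.31 in BRD1-L cells and by 0.11 and 0.10 in the Qiagen control, as MATK did in direction. PAX2 differed by -0.46 and -0.42 in BRD1-L cells, and by -0.02 and -0.28 in the Qiagen control, where MATK was higher. The Qiagen and Dharmacon 1 controls, in which MATK was high, each had 5 of 13 probe sets higher than untreated cells (compared with 2.23% and 3.16% of all probe sets), and the Dharmacon 2 control had 0 (compared with 1.93%). Averaged over the 13 probe sets, the markers read 9.14 in the BRD1-S and 7.82 in the BRD1-L line, 9.31, 9.52 and 9.19 with BRD1 siRNA and 9.43, 9.42 and 9.20 with control siRNA (Qiagen, Dharmacon 1 and Dharmacon 2), and 9.16 in untreated cells. Of the 17 blood cell probe sets 2 were higher in BRD1-L cells (compared with 3.67% of all probe sets), both of CD68, a lysosomal protein of macrophages. Those of PTPRC, CD3D, CD3E, CD79A and LYZ were all dim. BRD1-L cells, which had the lowest MATK and, averaged over its probe sets, the highest SRC, were thus also the array with the lowest neurofilament values. The part of these shifts in the MATK and SRC differences was not tested.

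**Figure D1:**
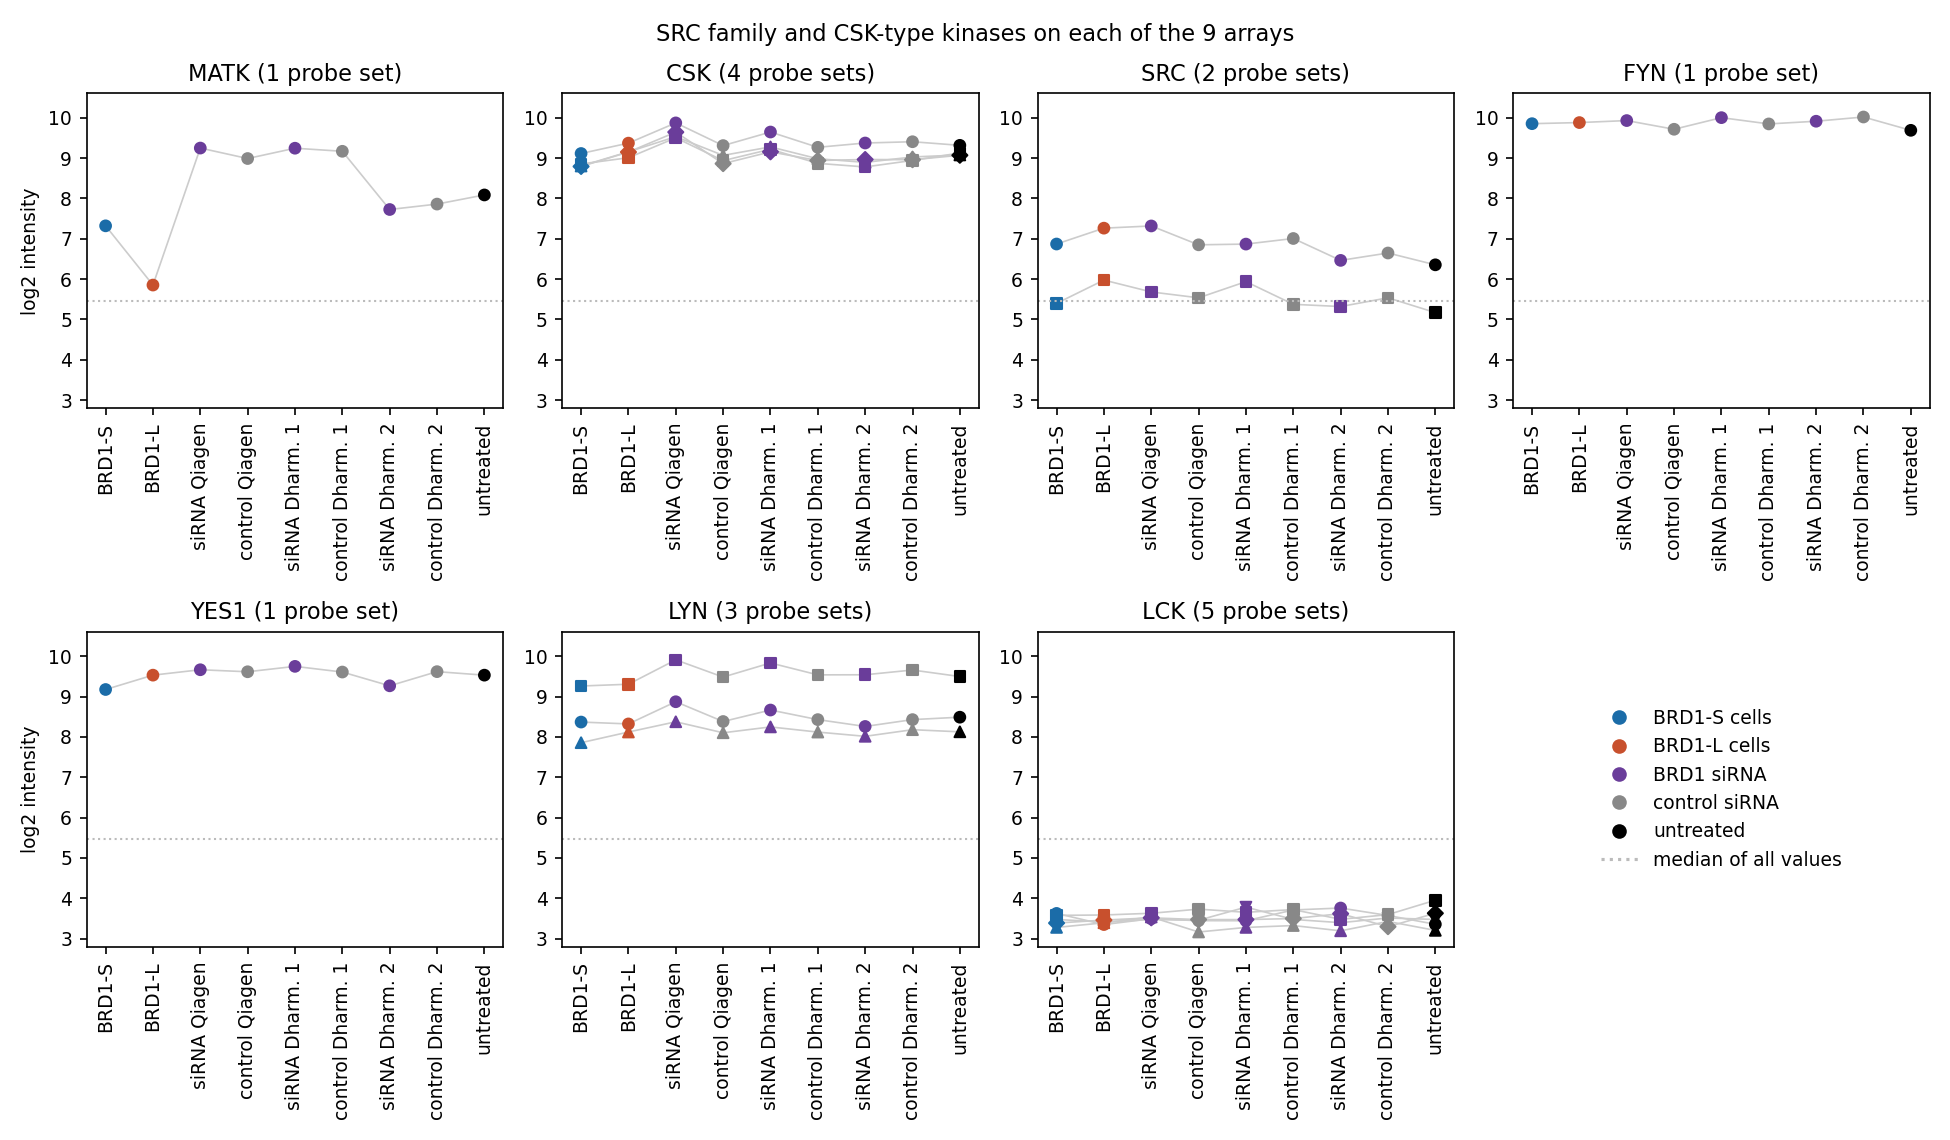
Log2 intensity (vertical axis) of every probe set of the 7 genes on each of the 9 arrays (horizontal axis), with symbols for the probe sets of a gene, a grey line joining each probe set and a dotted line at the median of all values, 5.47. MATK drops to 7.32 in the BRD1-S and 5.85 in the BRD1-L line, FYN stays within 0.33 across arrays, and all 5 LCK probe sets lie under the dotted line.

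SRC, the founding member of the family, was highest in BRD1-L cells and lowest in untreated cells when its probe sets were averaged. Probe set 11723135_s_at read 6.87 in the BRD1-S and 7.26 in the BRD1-L line, against 6.35 in untreated cells. Probe set 11723136_x_at read 5.40 and 5.98, against 5.17. In BRD1-L cells the differences were 0.91 (1.88-fold) and 0.80 (1.75-fold), and both exceeded 1.5-fold, while those of BRD1-S cells, 0.52 and 0.23, did not.

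The untreated array was the lowest of all 9 on both SRC probe sets, and this bears on every difference from it. With control siRNA, 11723135_s_at read 6.85, 7.01 and 6.65, and 11723136_x_at read 5.54, 5.38 and 5.54, in the order Qiagen, Dharmacon 1 and Dharmacon 2. Each of these 6 values was above that of untreated cells. Against the mean of the controls, SRC in BRD1-L cells differed by 0.43 and 0.49 on its probe sets, below 1.5-fold, and SRC in BRD1-S cells by 0.04 and -0.08. BRD1-L cells, for whose high value SRC was picked, lay above each of the 4 arrays without a change of BRD1. They did so by 0.26 or more on 11723135_s_at and by 0.44 or more on 11723136_x_at. The highest value of 11723135_s_at was nevertheless that of BRD1 siRNA in the Qiagen pair, 7.32. On 11723136_x_at BRD1 siRNA in the Dharmacon 1 pair read 5.94, close to the 5.98 of BRD1-L cells. In that pair BRD1 siRNA differed from its control by -0.14 on 11723135_s_at and by 0.56 on 11723136_x_at. Probe set 11723136_x_at lay above the median of all values on 5 of the 9 arrays.

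**Figure D2:**
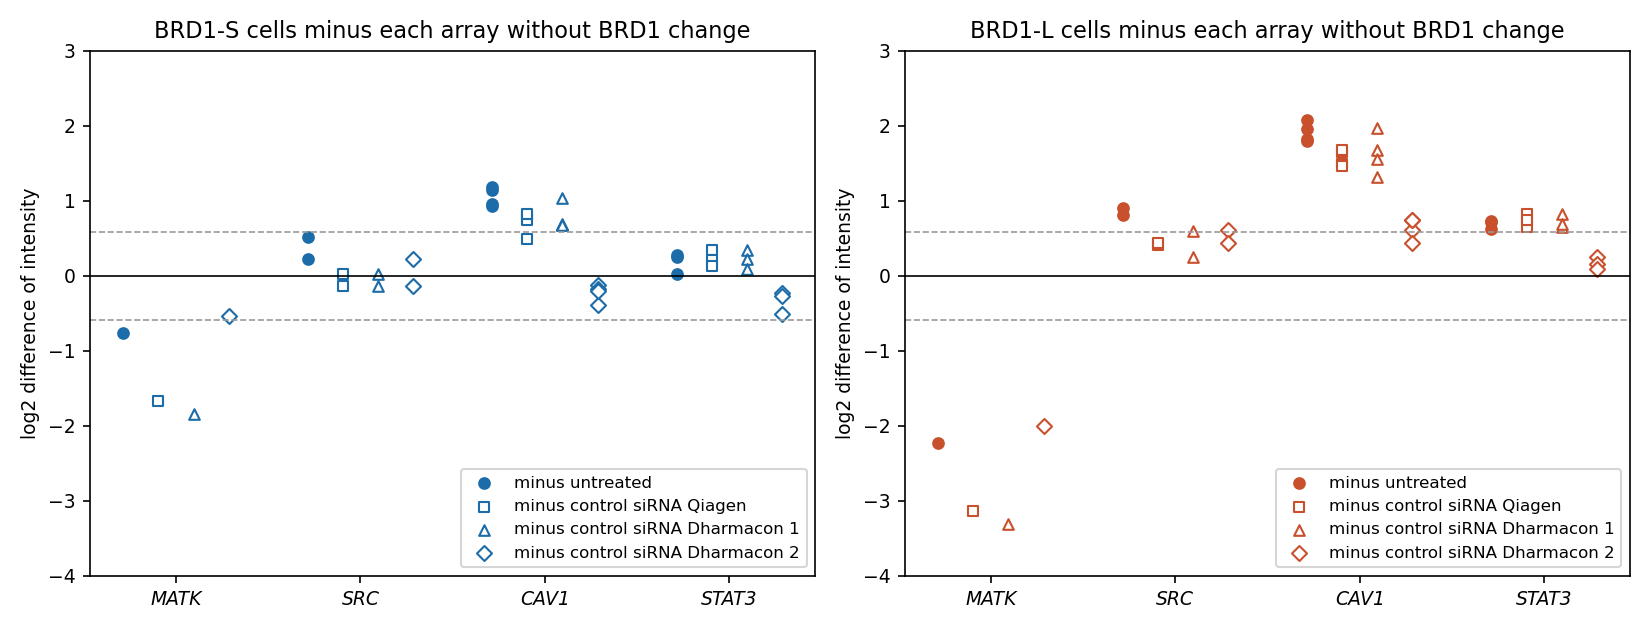
Log2 differences (vertical axis) of BRD1-S cells (left panel) and BRD1-L cells (right panel) from each of the 4 arrays without a change of BRD1, for the probe sets of MATK, SRC, CAV1 and STAT3, with dashed lines at 1.5-fold. MATK is below 0 against every array, whereas CAV1 and STAT3 in BRD1-S cells are below 0 against the Dharmacon 2 control and not below 0 against the others.

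Counted by probe set, few members differed by more than 1.5-fold in the lines. In BRD1-S cells 0 of 17 probe sets were higher, against 1.12% of all probe sets, and 1 was lower, MATK, against 0.326%. In BRD1-L cells 2 were higher, both of SRC, against 3.67%, and 1 was lower, again MATK, against 2.42%. Between the lines only MATK passed, lower in BRD1-L than in BRD1-S cells, where 1.97% of all probe sets did so. Since MATK and SRC were picked on these same differences, nothing is read from the counts. Both lines were set against the same untreated array. The remaining 14 probe sets stayed within 1.5-fold in both lines, and their values follow.

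FYN, which acts in adhesion and in neuronal signalling, varied least among the genes above the median of all values. Its probe set read 9.85 in the BRD1-S and 9.88 in the BRD1-L line, against 9.69 in untreated cells. With BRD1 siRNA it read 9.93 in the Qiagen pair, against 9.71 with control siRNA, and 9.91 in the Dharmacon 2 pair, against 10.02. In the Dharmacon 1 pair BRD1 siRNA exceeded its control, at 9.85, by 0.16, and the 3 BRD1 siRNA arrays overlapped with the 3 controls. The whole range over 9 arrays was 0.33, which 2 control arrays, Dharmacon 2 and Qiagen, nearly spanned.

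YES1, the closest relative of SRC in sequence and function, read 9.17 in the BRD1-S and 9.53 in the BRD1-L line, against 9.53 in untreated cells. BRD1-S cells were the lowest of the 9 arrays, with a difference of -0.36, while the 4 arrays without a change of BRD1 lay within 0.09 of each other. The next lowest array was BRD1 siRNA in the Dharmacon 2 pair, at 9.27. The other BRD1 siRNA arrays read 9.66 (Qiagen) and 9.75 (Dharmacon 1), against 9.61, 9.61 and 9.62 with control siRNA, so that BRD1 siRNA lay on both sides of its controls.

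LYN was present at levels well above the median of all values in these cells, although blood cell markers were not. Averaged over its 3 probe sets, LYN read 8.50 in the BRD1-S and 8.58 in the BRD1-L line, the lowest and second lowest of the 9 arrays, against 8.70 in untreated cells. The differences ran from -0.27 to -0.12 in the BRD1-S and from -0.19 to 0.00 in the BRD1-L line. With BRD1 siRNA the averages were 9.05, 8.92 and 8.60, against 8.66, 8.70 and 8.76 with control siRNA. BRD1 siRNA was thus higher than its control in the Qiagen and Dharmacon 1 pairs and lower in the Dharmacon 2 pair, on each of the 3 probe sets.

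LCK, the T cell kinase, gave 5 dim probe sets, between 3.17 and 3.95 on every array. All were below the median of all values, and the average over probe sets ran from 3.44 to 3.55. No detection calls were analysed, so differences among these values, at most 0.38 in size in the 5 comparisons, are not read as differences of LCK transcript. The relatives FGR, BLK, FRK, SRMS and PTK6 were likewise dim, with no value of their 12 probe sets above 4.93.

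CSK, the general inhibitor, had 4 probe sets, and on their average BRD1-S cells and BRD1 siRNA in the Qiagen pair stood at opposite ends. Averaged over probe sets, CSK read 8.89 in the BRD1-S and 9.17 in the BRD1-L line, against 9.15 in untreated cells. The differences were between -0.28 and -0.20 in BRD1-S cells, with all 4 below 0, and between -0.12 and 0.08 in BRD1-L cells. In contrast to MATK, CSK in BRD1-L cells was close to untreated cells.

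With BRD1 siRNA the CSK averages were 9.64, 9.32 and 9.00 in the pairs labelled Qiagen, Dharmacon 1 and Dharmacon 2, against 9.04, 9.01 and 9.08 with control siRNA. The controls lay within 0.07 of each other, and 2 of the 3 BRD1 siRNA arrays lay above all of them. Per probe set, the differences were 0.46 to 0.78 in the Qiagen pair, 0.21 to 0.38 in the Dharmacon 1 pair and -0.16 to 0.01 in the Dharmacon 2 pair. Probe set 11751031_a_at in the Qiagen pair, at 0.78, was the only 1 of the 17 past 1.5-fold in any pair, where 3.71% of all probe sets were higher. In the Dharmacon 1 pair 0 of 17 passed in either direction, against 5.73%, and in the Dharmacon 2 pair 0, against 1.4%.

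**Figure D3:**
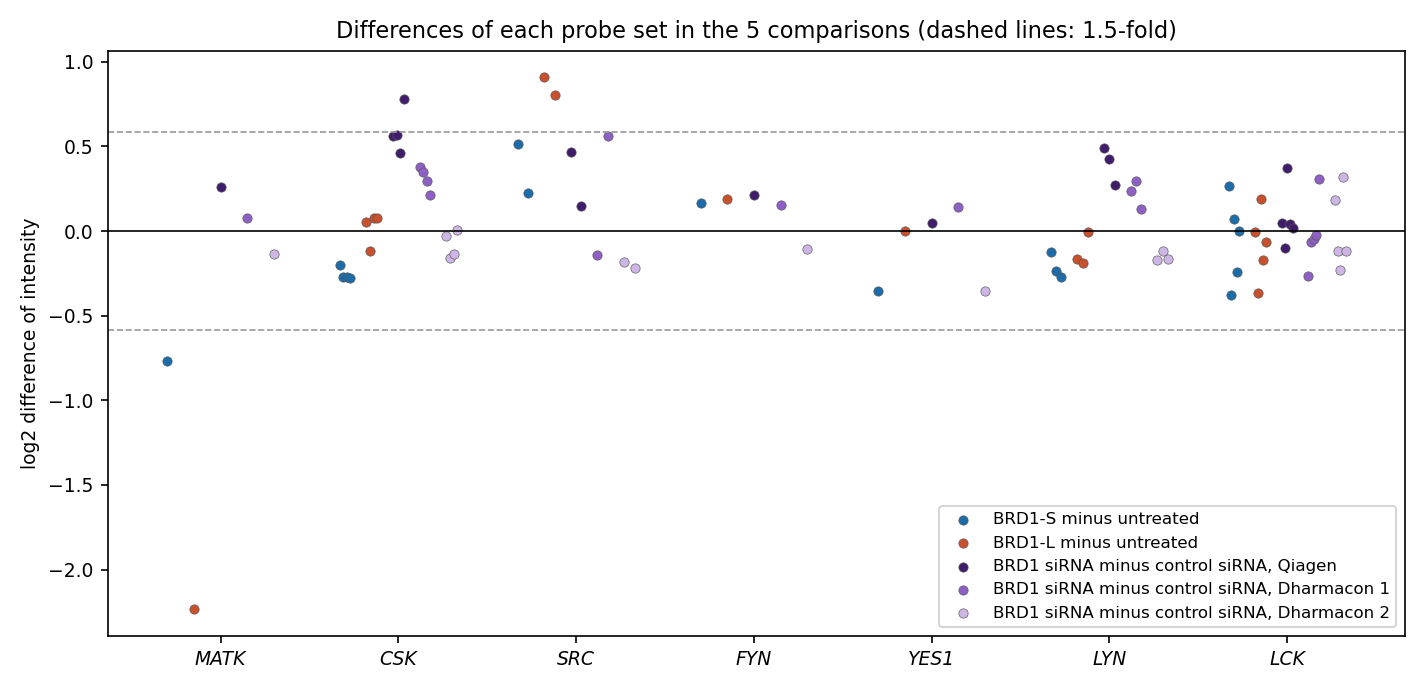
Log2 difference of intensity (vertical axis) of each of the 17 probe sets, grouped by gene (horizontal axis), in BRD1-S and BRD1-L cells relative to untreated cells and in the 3 siRNA pairs relative to their control siRNA, with dashed lines at 1.5-fold. MATK in both lines, SRC in BRD1-L cells and 1 CSK probe set in the Qiagen pair lie outside the lines.

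Across the 3 pairs, no member passed the adjusted threshold. A linear model over all 49386 probe sets (limma, kit as covariate, Benjamini-Hochberg adjustment) called 0 members and 0 probe sets in all, or 0% of those tested. At an unadjusted p under 0.05 there were 0 of the 17 members, compared with 2498 of all probe sets, or 5.06%. The members with the smallest unadjusted p were CSK probe sets 11724484_a_at, at 0.30 ± 0.13 (SE, unadjusted p = 0.059, adjusted p = 0.847, limma), and 11751031_a_at, at 0.33 ± 0.16 (SE, unadjusted p = 0.079, adjusted p = 0.847, limma). With the Dharmacon arrays alone these estimates were 0.17 and 0.11. MATK differed by 0.07 ± 0.48 (SE), the widest error of the members in this fit, which leaves out the pairs by which MATK separated. With the pair as a block the error of MATK was 0.11, and those of SRC were 0.15 and 0.16. Without the block, SRC differed by 0.05 ± 0.19 on 11723135_s_at and 0.16 ± 0.17 on 11723136_x_at. For LYN the estimates were 0.08 to 0.20, for FYN 0.09 and for YES1 -0.05. The targeted gene did not pass either, since BRD1 probe set 11731093_s_at, at -1.19 ± 0.09 (SE), had an adjusted p of 0.646 by limma, and a missing call does not show equal levels. Without the Dharmacon 2 control array limma called 106 probe sets, and 0 of the members. The study speaks of separate siRNA experiments, but how their cultures were related is not given in the sources used here, and the p-values measure the spread between these arrays.

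Whether the kits gave different effects was tested as an interaction of siRNA and kit in limma. It called 0 of 49386 probe sets, with 912 at an unadjusted p under 0.05, and all members had an adjusted p of 1. The largest difference among the members was that of CSK probe set 11751031_a_at, whose effect was 0.67 ± 0.21 (SE) higher with the Qiagen than with the Dharmacon kit. The Qiagen kit had 1 array of each kind, so the spread came from the Dharmacon arrays. A difference between kits is also one between siRNA pools and concentrations.

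CSK and LYN shared the arrays at both ends of their order, but not those between. BRD1 siRNA in the Qiagen and Dharmacon 1 pairs ranked highest and second highest for both genes, and BRD1-S cells ranked lowest for both. BRD1-L cells, in contrast, had the next highest CSK, at 9.17, and the second lowest LYN, at 8.58. BRD1-S cells were the lowest array for 3 of the 7 genes, YES1, LYN and CSK, and BRD1 siRNA Qiagen was the highest for 3, LYN, CSK and MATK.

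**Figure D4:**
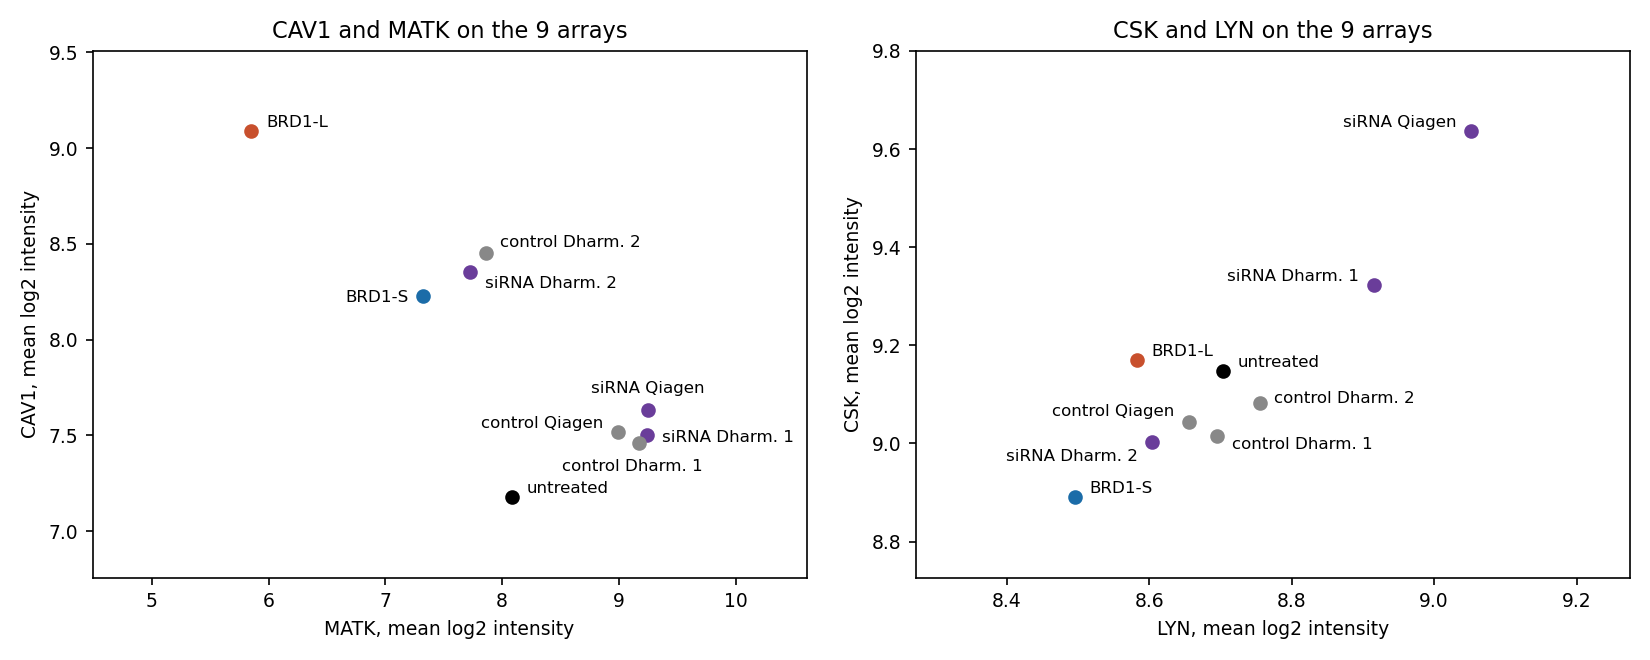
Mean log2 intensity over probe sets of CAV1 against MATK (left panel) and of CSK against LYN (right panel), with 1 point for each of the 9 arrays. BRD1-L cells have the highest CAV1, 9.09, and the lowest MATK, 5.85, and BRD1 siRNA Qiagen has the highest CSK, 9.64, and the highest LYN, 9.05.

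Around the kinases, 47 genes of the pathway were listed, covering further family members, anchors of CSK, phosphatases, substrates and adaptors, and receptors that bind MATK. Of these 43 had probe sets of their own, 167 in all. In BRD1-S cells 4 of the 167 were more than 1.5-fold higher and 0 lower, or 2.40% in either direction, compared with 1.45% of all probe sets. In BRD1-L cells 9 were higher and 1 lower, or 5.99%, compared with 6.09%. In the Qiagen pair 10 were higher and 5 lower (8.98%, compared with 7.42% of all probe sets), in the Dharmacon 1 pair 12 and 1 (7.78%, compared with 5.73%) and in the Dharmacon 2 pair 1 and 2 (1.80%, compared with 1.4%). In the limma fit 0 of 167 were called, with 17 at an unadjusted p under 0.05, or 10.2%, compared with 5.06% of all probe sets, and 14 of the 17 were higher with BRD1 siRNA. The median difference of the list was 0.00 in the BRD1-S and 0.06 in the BRD1-L line, against 0.00 over all probe sets in either line.

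CAV1, the caveolin that SRC phosphorylates and that can then bind CSK, accounted for all 4 probe sets that were higher in BRD1-S cells. Averaged over its 4 probe sets, CAV1 read 8.23 in the BRD1-S and 9.09 in the BRD1-L line, against 7.18 in untreated cells. The differences ran from 0.93 to 1.18 in the BRD1-S and from 1.80 to 2.07 in the BRD1-L line. With control siRNA it read 7.52 (Qiagen), 7.46 (Dharmacon 1) and 8.45 (Dharmacon 2), so that BRD1-S cells lay below the Dharmacon 2 control and BRD1-L cells above all controls. BRD1 siRNA, at 7.63, 7.50 and 8.35, followed its own control in each pair. As with MATK, the Dharmacon 2 pair therefore stood apart from the others, but in the opposite direction. For CAV1 the Dharmacon 2 pair was also the one farthest from untreated cells, whereas for MATK it was closer to them than the other pairs.

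STAT3, a transcription factor that SRC can activate, was the other gene of the lists whose probe sets all passed 1.5-fold, and this was in BRD1-L cells. Its average was 8.67 in the BRD1-S and 9.17 in the BRD1-L line, against 8.48 in untreated cells, and the 3 probe sets differed by 0.63 to 0.73 in BRD1-L cells. With control siRNA it read 8.43, 8.45 and 9.01 in the order Qiagen, Dharmacon 1 and Dharmacon 2. BRD1-L cells thus exceeded the Dharmacon 2 control only by 0.09 to 0.25. In the siRNA pairs, no gene of the lists passed 1.5-fold on all its probe sets in 1 direction throughout.

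The genes whose levels ran most like MATK over the 9 arrays were PELP1, a coregulator of nuclear receptors (Pearson r = 0.98), RAC3, a small GTPase (0.98), WNK2, a kinase (0.98), HBQ1, a globin (0.98), and ARHGAP22, a GTPase activating protein (0.98). They were the first 5 of 843 genes above the median of all values whose range was 1 log2 unit or more. HBQ1, for example, read 7.06 in the BRD1-S and 5.96 in the BRD1-L line, against 7.15 in untreated cells. On the 4 arrays of the Qiagen and Dharmacon 1 pairs it lay between 8.42 and 8.61, and on those of the Dharmacon 2 pair at 7.32 and 7.57. The likeness thus includes the split between the siRNA pairs. For SRC the first 5 of 844 genes were INSM1, a zinc finger protein of neuroendocrine cells (r = 0.92), CXCL16, a chemokine (0.90), PKD1, the gene of a polycystin (0.87), EFEMP1, an extracellular matrix protein (0.84), and PXDC1 (0.84). INSM1 read 7.49 in the BRD1-S and 8.39 in the BRD1-L line, against 7.05 in untreated cells, which were its lowest array as they were for SRC. These correlations rest on 9 arrays that share a cell line and, in part, a transfection, and they carry no test.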

How the data were processed

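Expression was measured on 9 Affymetrix U219 arrays of HEK293T cells. The deposited values are log2 intensities per probe set. The study describes scaling of probe intensities to the array mean, and whether the deposited values carry that scaling was not checked. Probe summary, background correction and software are not given in the sources used here, and the scanner data were not analysed here, so precision is limited by the number of arrays. Probe sets were named from the platform annotation, which left 45259 with 1 gene symbol, 1327 with several and 2800 with none. Values per gene are means over probe sets. A difference counted as past the threshold at 1.5-fold (0.58 on the log2 scale), as in the study. BRD1-S and BRD1-L cells have 1 array each and were compared with untreated cells without a test. The 6 siRNA arrays entered a model with siRNA and kit as terms (limma 3.58.1, R 4.3.3), with Benjamini-Hochberg adjustment at 0.05 over all 49386 probe sets. The step was also run on simulated arrays that were independent of each other, which does not cover shared deviations of a pair. Arrays of 1 pair deviated together, with correlations across probe sets of 0.263 (Qiagen), 0.182 (Dharmacon 1) and 0.252 (Dharmacon 2), and the pair was used as a block in an alternative. Alternatives were other scalings, a filter on dim probe sets, a 2-fold threshold, other controls, other models and each array left out. Named by rule were BRD1, all 7 members, listed pathway genes whose probe sets all passed 1.5-fold in 1 direction in a line or in all pairs, and the 5 genes most correlated with MATK and with SRC. Of the listed pathway genes, only CAV1 and STAT3 met this rule. The genes under other observations, such as PTK2, BCAR1, PAG1 and GAB1, were named outside it. The members and lists were chosen with earlier results of these data known. Python 3.11.15, numpy 2.4.6, pandas 2.3.3 and matplotlib 3.10.9 were used for the rest.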

Additional observations from a re-analysis of the deposited data

How the results depend on the processing

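The differences of MATK ranged from -1.35 to -0.54 in BRD1-S cells and from -2.82 to -2.01 in BRD1-L cells over the 6 settings tried, and those of SRC from -0.02 to 0.52 and from 0.46 to 0.91. The count of 1 member probe set past 1.5-fold in BRD1-S cells became 0 at a 2-fold threshold, which 0.292% of all probe sets passed, and 0 with the Dharmacon 2 control in place of untreated cells, where 1.66% passed 1.5-fold, an alternative chosen after seeing the data. The count of 3 in BRD1-L cells became 1 when the 3 control siRNA arrays were averaged as the control (8.01% of all probe sets), and 1 at 2-fold (1.29%). Of all probe sets in BRD1-L cells, 1810 were higher and 1196 lower than in untreated cells, but 1431 were higher and 1651 lower after centring each array on its median. With limma, 0 member probe sets were called under every setting. With the pair as a replicate block, 0 of all probe sets were called, with 3574 at an unadjusted p under 0.05 and a smallest adjusted p of 0.660 among members, and the block changed no call, while the error of MATK was 0.11 with it and 0.48 without. Leaving out the Dharmacon 2 control array gave 106 called probe sets in all, in place of 0, none of them a member. Leaving out the BRD1 siRNA array of that pair brought 7 member probe sets under an unadjusted p of 0.05, as were 4891 of all probe sets (9.90%), with a smallest adjusted p of 0.438. The MATK difference with BRD1 siRNA, which was not called, ranged from -0.34 (without the BRD1 siRNA array of Dharmacon 1) to 0.53 (without that of Dharmacon 2) when each array was left out in turn. Of the alternative values for single genes, 133 moved by less than 1 SD between control arrays or pairs and 34 by more, and no difference past 1.5-fold changed sign. With 1 array for each line and no detection calls, neither the error of a line nor the floor of a dim probe set is known.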

Other observations

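Of 23 substrates and adaptors of SRC family kinases, the gene average with BRD1 siRNA was above its control for 14 in the Qiagen, 17 in the Dharmacon 1 and 5 in the Dharmacon 2 pair. The matching share of all genes was not computed, so nothing is read from these gene counts. Of their 102 probe sets 9 were more than 1.5-fold higher and 3 lower in the Qiagen pair, where 7.42% of all probe sets passed in either direction. In the Dharmacon 1 pair 11 were higher and 0 lower (compared with 5.73%), and in the Dharmacon 2 pair 0 and 1 (compared with 1.4%). Their medians were 0.07, 0.08 and -0.05 in the order Qiagen, Dharmacon 1 and Dharmacon 2, against 0.00, 0.01 and -0.02 over all probe sets. PTK2, the focal adhesion kinase, and CRKL, an adaptor, differed by -0.50 and -0.41 in the Qiagen pair and by -0.02 and -0.04 in the Dharmacon 1 pair. The 3 genes that follow were chosen after their values were seen, among those with the largest positive averages. ASAP1, a GTPase activating protein of ARF proteins, averaged 8.94 and 9.07 over its 4 probe sets with BRD1 siRNA, against 8.44 and 8.44 with control siRNA, and in the Dharmacon 2 pair it read 8.77 against 8.75. CBL, a ubiquitin ligase, read 7.43 and 7.55 against 6.99 and 7.08, and in the Dharmacon 2 pair 7.46 against 7.56. AFAP1, an actin filament binding protein, read 6.10 and 6.14 against 5.66 and 5.70, and in the Dharmacon 2 pair 5.84 against 5.89. In the Dharmacon 1 pair the probe sets of CBL ranged from -0.25 to 0.85 and those of AFAP1 from -0.35 to 0.81, so 1 or more of each opposed the average. For all 3 genes the Qiagen and Dharmacon 1 controls were below untreated cells, which read 8.66 for ASAP1, 7.35 for CBL and 5.86 for AFAP1.

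BCAR1, the adaptor p130Cas of focal adhesions, averaged 6.56 in the BRD1-S and 7.08 in the BRD1-L line over 5 probe sets, against 6.61 in untreated cells. Its probe sets differed by 0.39 to 0.56 in BRD1-L cells, short of 1.5-fold. With BRD1 siRNA they differed from control siRNA by 0.27 to 0.67 in the Qiagen pair and 0.23 to 0.38 in the Dharmacon 1 pair. In the Dharmacon 2 pair the differences were -0.27 to -0.06. PAG1, a membrane anchor of CSK, averaged 6.86 in the BRD1-S and 6.95 in the BRD1-L line over 4 probe sets, against 7.21 in untreated cells. Its probe sets differed by -0.53 to -0.01 in BRD1-S cells and by -0.35 to -0.06 in BRD1-L cells. With control siRNA PAG1 averaged 7.61 (Qiagen), 7.56 (Dharmacon 1) and 7.17 (Dharmacon 2). GAB1, a docking protein, averaged 5.68 in the BRD1-S and 5.36 in the BRD1-L line over 8 probe sets, against 5.75 in untreated cells. Its probe sets differed by -0.26 to 0.00 in BRD1-S cells and by -0.76 to -0.06 in BRD1-L cells. With control siRNA GAB1 averaged 5.60 (Qiagen), 5.66 (Dharmacon 1) and 5.81 (Dharmacon 2). The phosphatases PTPRA and PTPN1, which remove the tail phosphate, stayed close to untreated cells, with averages of 6.89 and 8.40 in the BRD1-S and 6.98 and 8.47 in the BRD1-L line, against 6.85 and 8.33. No test was run on these values for the lines.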
